A study of Mus musculus with 9 samples.

Results

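The comparison described here sets hippocampal RNA of mice with a ligated spinal nerve (SNL) against that of sham-operated mice, and it uses 6 of the 9 libraries of the series, 3 per group, chosen by their labels. All mice are labelled C57BL/6J, an inbred laboratory strain. In sham mice the L5 spinal nerve was located and left untied, and SNL mice had the nerve tied. Mice of both groups then received solvent. The other 3 libraries came from ligated mice injected intraperitoneally with cannabidiol (CBD) at 5 mg/kg for 15 days. They are on neither side of the comparison, but they enter the filter on low counts, the scaling and the estimate of the spread between libraries. The labels do not give age or sex, the time between surgery and tissue collection, or whether each library came from its own animal. The p-values therefore measure only the spread between these libraries, which may be technical.

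Spinal nerve ligation is a surgical model of lasting neuropathic pain, in which injury of a peripheral nerve makes the paw sensitive to light touch and heat. The hippocampus stores memories and takes part in the control of mood and of the hormonal stress response. Its neurons carry 2 receptors for corticosterone, the glucocorticoid receptor and the mineralocorticoid receptor, and hormone-bound receptors enter the nucleus and switch on a set of target genes. Its cells also answer misfolded protein in the endoplasmic reticulum by making chaperones, and viral nucleic acid or interferon by making antiviral proteins. These systems order the account below, followed by the neuronal, vascular and metabolic genes.

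The 6 libraries held between 16972620 and 20470546 expected counts. Of 57010 genes in the deposited table, 17967 passed the filter on low counts. By edgeR's quasi-likelihood test, 0 of them (0%) had an adjusted p under 0.05, so no single gene below is called by that test. Before adjustment, 1048 genes (5.83%) were higher and 1430 (7.96%) lower in SNL at a p under 0.05, and the DESeq2 Wald test called 314 (1.75%) at an adjusted p under 0.05, 94 higher and 220 lower. Every SNL library lay above every sham library for 1426 genes (7.94%) and below every sham library for 1763 (9.81%), and such groups are called separated below. The median log2 fold change of SNL over sham was 0.01 over all genes, with a median standard error (SE) of 0.18. Levels are CPM, counts scaled to library size, and always follow the order of replicates 1, 2 and 3. The 6 libraries did not sort by group as wholes: over the 500 genes that differed most in each pair, the root mean square log2 difference was 2.10 to 2.36 between sham libraries, 2.14 to 2.34 between SNL libraries and 2.12 to 2.77 between groups, and the library nearest to Sham 3 was SNL 3.

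Some libraries held transcripts that hypothalamic neurons are known for. Pmch, the precursor of melanin-concentrating hormone of the lateral hypothalamus, reached 200.4 CPM in SNL 1 and 43.9 CPM in SNL 2, against 0.797 CPM in SNL 3 and 0.101 to 0.765 CPM in sham. Hcrt, the precursor of the orexins, was at 60.3, 7.20 and 0.213 CPM in the SNL libraries and at 0, 0 and 0.102 CPM in sham. Results were therefore also computed without SNL 1, SNL 2 and CBD 1, an alternative chosen after the data had been seen, which leaves SNL 3 as the only SNL library. The markers of the labelled tissue were present in all 6 libraries, with summed levels of at least 681.8 CPM for dentate granule cells and 596.4 CPM for CA1 pyramidal neurons.

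Genes induced by glucocorticoids stood lower in SNL. Of 28 such genes on the list, 26 were lower and 2 higher, 17 were lower at an unadjusted p under 0.05, and 18 were separated downwards. The shares of all genes were 7.96% lower at that p and 9.81% separated downwards. The median log2 fold change was -0.55, against 0.01 for all genes, and it lay between -0.65 and -0.47 under every alternative run, with a value of -0.58 in the fit that keeps SNL 3 alone. DESeq2 called 8 of the 28, all lower, against 1.75% of all genes. The list was drawn up with earlier results of these libraries known, so its counts are a description and no independent evidence of the direction.

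The smallest p in the list was that of Sgk1 (ENSMUSG00000019970), the serum- and glucocorticoid-regulated kinase, which controls ion channels and transporters. It stood at 170, 131 and 177.7 CPM in sham and at 41.6, 52.3 and 33.4 CPM in SNL, a log2 fold change of -1.91 (SE 0.23, adjusted p 0.0755). The highest SNL library was thus far below the lowest sham library. The log2 fold change ranged between -2.25 and -1.77 over the alternatives. The cochaperone Fkbp5, which lowers the hormone affinity of the glucocorticoid receptor and is itself a target of it, stood at 67.9, 90.8 and 59.1 CPM in sham and at 32.9, 32.7 and 41.0 CPM in SNL (log2 change of -1.03, SE 0.16, adjusted p 0.160).

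Hif3a, a hypoxia-inducible factor subunit, was at 8.82, 11.5 and 12.3 CPM in sham and at 3.15, 2.997 and 2.87 CPM in SNL. Its 3 SNL values lay close together, and its log2 fold change was -1.85 (SE 0.30, adjusted p 0.160). Plin4, which coats lipid droplets, was at 8.72, 14.1 and 11.7 CPM in sham and at 3.85, 4.26 and 2.50 CPM in SNL (-1.70, SE 0.29, adjusted p 0.193). Zbtb16, a transcription factor induced by steroids, was at 58.6, 75.8 and 47.2 CPM in sham and at 18.6, 22.5 and 33.5 CPM in SNL (-1.28, SE 0.25, adjusted p 0.208). The repressor Bcl6 was at 52.3, 51.7 and 36.8 CPM in sham and at 22.9, 26.9 and 29.6 CPM in SNL (-0.83, SE 0.16, adjusted p 0.193). All 4 genes were separated, and the same held for Klf9, a Krüppel-like factor that corticosterone induces in neurons, at 184.2, 218.6 and 188.7 CPM in sham and 124.4, 155.3 and 128.1 CPM in SNL. Smaller separated differences were those of Errfi1, an inhibitor of the epidermal growth factor receptor (-0.42), Klf15, a Krüppel-like factor of amino acid metabolism (-0.56), Mertk, a receptor for the clearance of dying cells (-0.69), and the clock gene Per1 (-0.59).

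Not all targets took part. Tsc22d3, which encodes the anti-inflammatory protein GILZ, stood at 84.3, 80.5 and 112.7 CPM in sham and at 86.4, 81.8 and 69.2 CPM in SNL, so the groups overlapped (-0.23, SE 0.18). The metallothionein genes Mt1 (-0.13, SE 0.22) and Mt2 (-0.33, SE 0.25) and the glucose transporter gene Slc2a1 (-0.08, SE 0.16) also overlapped. The 2 genes that were higher were Dusp1, a phosphatase of MAP kinases (0.62, SE 0.26), and Lcn2, lipocalin 2 (3.12, SE 1.17), and 1 SNL library stood far above the rest in each: Dusp1 at 29.2 CPM in SNL 2 and Lcn2 at 10.7 CPM in SNL 3.

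The receptors of the hormone differed in direction from each other. Nr3c2, the mineralocorticoid receptor, was at 143, 161.5 and 107.5 CPM in sham and at 59.5, 77.7 and 89.8 CPM in SNL, with separated groups (-0.86, SE 0.31, adjusted p 0.289). Nr3c1, the glucocorticoid receptor, was at 73.5, 68.7 and 76.0 CPM in sham and at 80.3, 99.4 and 82.0 CPM in SNL, separated upwards (0.26, SE 0.13, adjusted p 0.397). Neither passed the test, and the difference between the 2 genes was not tested. Chaperones that fold the receptors were separated upwards, among them Fkbp4 (0.41, SE 0.13), Stip1, which links the chaperones HSP70 and HSP90 (0.35, SE 0.12), and the p23 gene Ptges3 (0.32, SE 0.12). Ncor1, a corepressor of nuclear receptors, was lower (-0.39, SE 0.16), as was the coactivator gene Ncoa1 (-0.38, SE 0.14). Of the 18 genes tested for receptors, cofactors and corticotropin-releasing hormone signalling, 9 were higher and 9 lower. Crh itself was at -0.16 (SE 0.59).

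Chaperones and folding enzymes of the endoplasmic reticulum stood higher in SNL. These genes are switched on by the transcription factors ATF6 and XBP1 when unfolded protein builds up. Of 21 such genes, 18 were higher, 11 were higher at an unadjusted p under 0.05 and 11 were separated upwards. The shares of all genes were 5.83% higher at that p and 7.94% separated upwards. The median log2 fold change was 0.22, between 0.19 and 0.28 under every alternative run. DESeq2 called 3 of the 21, all higher, against 1.75% of all genes. Many of these genes are known to carry, before their start, a bipartite element read by ATF6 and XBP1, and it is shown here for 3 separated genes that hold it. The stretches run 300 bases on the strand of the gene, most of them before the gene start that RefSeq annotates, on GRCm38.p6. The capitals mark CCAAT followed after 9 bases by CCACG, or the same on the other strand.
Hspa5: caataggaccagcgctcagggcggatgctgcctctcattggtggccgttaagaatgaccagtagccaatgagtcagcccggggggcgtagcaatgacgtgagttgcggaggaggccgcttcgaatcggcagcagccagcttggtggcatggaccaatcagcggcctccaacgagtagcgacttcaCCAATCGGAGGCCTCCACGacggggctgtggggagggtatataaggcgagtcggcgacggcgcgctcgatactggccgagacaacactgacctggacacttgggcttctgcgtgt
Pdia6: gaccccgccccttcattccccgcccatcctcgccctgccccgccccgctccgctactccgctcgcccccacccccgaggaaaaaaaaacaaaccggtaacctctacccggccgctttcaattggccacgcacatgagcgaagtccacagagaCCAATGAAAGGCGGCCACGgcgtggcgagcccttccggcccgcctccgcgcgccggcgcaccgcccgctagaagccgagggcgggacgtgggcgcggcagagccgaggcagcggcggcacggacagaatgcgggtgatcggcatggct
Hsp90b1: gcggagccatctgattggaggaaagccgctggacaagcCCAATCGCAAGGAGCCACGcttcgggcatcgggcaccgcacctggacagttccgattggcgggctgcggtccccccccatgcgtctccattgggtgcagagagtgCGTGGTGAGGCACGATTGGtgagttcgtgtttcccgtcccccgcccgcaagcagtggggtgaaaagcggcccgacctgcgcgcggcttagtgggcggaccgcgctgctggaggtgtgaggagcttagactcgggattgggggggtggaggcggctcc
The Hspa5 stretch is chr2:34771840-34772139 on the plus strand, that of Pdia6 is chr12:17266339-17266638 on the plus strand, and that of Hsp90b1, which has a match on each strand, is chr10:86705395-86705694 on the minus strand. The element stood in a promoter of 8 of the 18 chaperone genes that matched by symbol (44.4%) and in 39 of all 32851 promoters of that length (0.119%). Here and below, a listed gene counts if any of its promoters matches, while the share of all promoters counts each promoter singly. Within the list, the median log2 fold change was 0.23 for the 8 genes with the element and 0.25 for the 10 without, so having it in this window did not go with a larger difference. A match is a description of the letters and not a measured binding site.

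Hspa5, the chaperone BiP that also holds the stress sensors inactive, stood at 207.4, 190.5 and 235.4 CPM in sham and at 294.8, 339.7 and 265.2 CPM in SNL (log2 change of 0.51, SE 0.12, adjusted p 0.211). Pdia6, which reshuffles disulfide bonds, stood at 89.2, 90.7 and 90.6 CPM in sham and at 109.2, 114.1 and 127.5 CPM in SNL (0.37, SE 0.10, adjusted p 0.224). Every SNL library was above every sham library for both, and the spread among the sham values of Pdia6 was very small. Hsp90b1, the HSP90 of this compartment, was at 279, 288.2 and 341.7 CPM in sham and at 403.8, 405.5 and 347.3 CPM in SNL (0.35, SE 0.11), where SNL 3 barely exceeded Sham 3. Manf, a secreted survival factor of this pathway, was at 26.9, 42.3 and 35.4 CPM in sham and at 49.2, 53.7 and 53.3 CPM in SNL (0.58, SE 0.15). Xbp1, the transcription factor itself, was at 55.9, 56.6 and 58.2 CPM in sham and at 72.0, 69.8 and 69.3 CPM in SNL (0.31, SE 0.09), with tight values in both groups. Sdf2l1 (0.53), the cochaperones Dnajb9 (0.45) and Dnajb11 (0.29), and Calr, the lectin chaperone calreticulin (0.26), were also separated upwards. Of the 3 members that were lower, only Atf6, the gene of the sensor, was separated, at 68.2, 79.8 and 63.2 CPM in sham and 42.0, 51.4 and 51.6 CPM in SNL (-0.54, SE 0.19). Members that remove misfolded protein overlapped between the groups, with Herpud1 at 0.09 (SE 0.16), Sel1l at -0.15 (SE 0.09) and Syvn1 at -0.07 (SE 0.13).

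**Figure D1:**
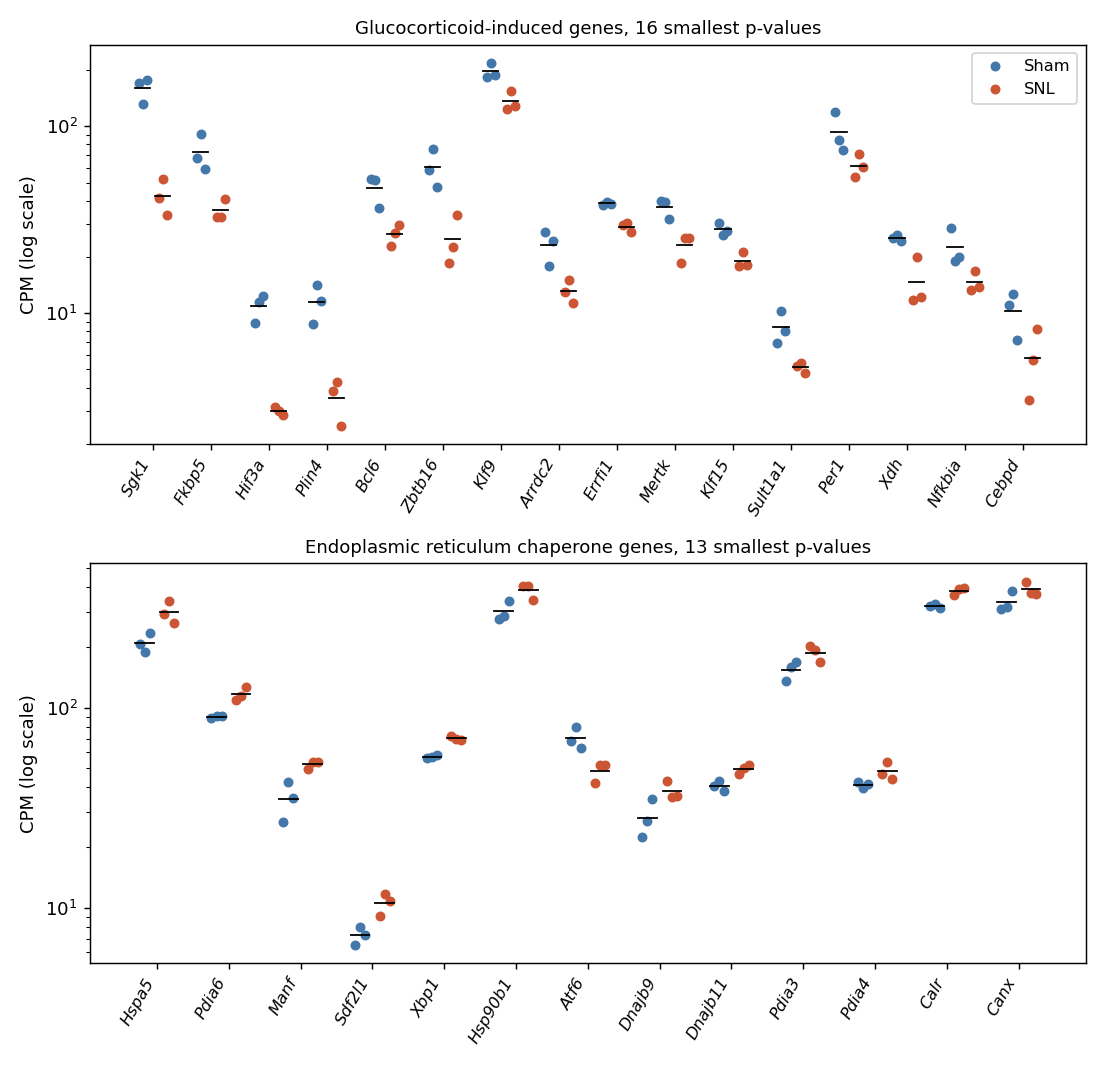
Level of each gene in CPM (log axis) in the 3 sham (blue) and 3 SNL (red) libraries, one point per library and a black line at the group mean, for the glucocorticoid-induced genes (top) and the endoplasmic reticulum chaperone genes (bottom) with the smallest p-values. In the top panel the SNL points lie below the sham points for 15 of the 16 genes, Cebpd being the one that overlaps. In the bottom panel they lie above for 11 of 13, Atf6 being lower and Canx overlapping.

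The PERK branch of the same response, which works through the transcription factor ATF4, showed no common direction. Of 21 genes, 10 were higher and 11 lower, with a median of 0. Ddit3, the stress-induced transcription factor CHOP, had the smallest p of all genes higher in SNL, at 15.3, 14.6 and 16.1 CPM in sham and 23, 22.3 and 23.9 CPM in SNL (log2 change of 0.59, SE 0.10, adjusted p 0.193). Each group spanned under 2 CPM. Gadd45a, which acts in growth arrest and DNA repair, was at 3.72, 2.88 and 3.62 CPM in sham and at 7.12, 6.52 and 6.27 CPM in SNL (0.96, SE 0.21, adjusted p 0.210). Atf4 was separated upwards with a small difference (0.26, SE 0.11). Lower values were those of Cebpb, a transcription factor (-0.91, SE 0.27), and Slc7a5, an amino acid transporter that ATF4 induces (-0.38, SE 0.11). Among 16 cytosolic heat shock and chaperone genes 11 were higher, with Cryab, alpha-B crystallin, at 81.5, 92.2 and 107.8 CPM in sham and 144.8, 168.4 and 119.1 CPM in SNL (0.62, SE 0.17). Cryab is abundant in myelin-forming cells, whose markers are given below. The median of the heat shock list was 0.18, and it was 0.09 without Sham 1.

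Genes that interferon induces were lower in SNL with large differences and large errors. Of 27 such genes, 26 were lower, 23 were separated downwards, and 10 were lower at an unadjusted p under 0.05. Among all genes, 9.81% were separated downwards and 7.96% were lower at that p. DESeq2 called 1 of the 27, against 1.75% of all genes, but it gave no adjusted p for some members, Ifit1 and Ifit3 among them. The median log2 fold change was -1.02, between -1.14 and -0.76 under every alternative run. The summed level of the list was 481.5, 444.2 and 606.5 CPM in sham and 224.5, 304.1 and 219.8 CPM in SNL. In the CBD libraries the same sum was 751.7, 212.2 and 226.2 CPM, so 1 of them stood above all sham libraries, and the spread between them enters the errors here. Both promoters shown next hold the doubled TTTC motif, separated by 2 bases, that interferon-activated factors read, in capitals on either strand, with the same window and build as above.
Ifit3: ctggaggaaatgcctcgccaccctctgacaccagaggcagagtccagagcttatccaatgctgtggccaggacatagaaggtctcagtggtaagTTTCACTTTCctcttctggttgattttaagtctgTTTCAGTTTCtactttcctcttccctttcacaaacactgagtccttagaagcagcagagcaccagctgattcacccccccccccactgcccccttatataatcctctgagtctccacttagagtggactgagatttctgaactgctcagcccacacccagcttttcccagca
Isg15: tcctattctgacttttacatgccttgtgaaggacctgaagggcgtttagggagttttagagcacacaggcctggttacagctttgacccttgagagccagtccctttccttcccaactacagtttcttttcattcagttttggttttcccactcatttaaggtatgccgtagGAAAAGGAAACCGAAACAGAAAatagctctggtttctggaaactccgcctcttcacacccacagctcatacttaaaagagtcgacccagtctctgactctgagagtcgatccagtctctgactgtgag
The Ifit3 stretch is chr19:34583279-34583578 on the plus strand, and that of Isg15 is chr4:156200769-156201068 on the minus strand. The motif stood in 12 of the 20 interferon-induced genes with a promoter in the table (60%) and in 3.44% of all 32851. The median log2 fold change was -1.17 for the 12 genes with it and -1.06 for the 8 without.

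Irf7, the transcription factor that amplifies the type I interferon response, stood at 16.6, 13.6 and 20.1 CPM in sham and at 3.15, 4.68 and 2.50 CPM in SNL (log2 change of -2.28, SE 0.79, adjusted p 0.271). In the fit on the 6 libraries alone its adjusted p was 0.0698. Lgals3bp, a secreted glycoprotein, was at 84.0, 57.0 and 80.7 CPM in sham and at 19.0, 31.6 and 19.2 CPM in SNL (-1.67, SE 0.44, adjusted p 0.226). The lowest sham value was well above the highest SNL value for both. Ifi27, an interferon-induced membrane protein, had the smallest p of the list, at 64.3, 73 and 59.96 CPM in sham and 27.8, 34.0 and 35.6 CPM in SNL (-1.02, SE 0.20, adjusted p 0.193). Ifit3, which binds antiviral adaptor proteins, was at 36.4, 32.6 and 70.3 CPM in sham and at 13.8, 16.5 and 11.5 CPM in SNL (-1.73, SE 0.70). Part of its reads may belong to the near copy Ifit3b, which was also lower (-1.22, SE 0.66). Isg15, a ubiquitin-like modifier, was at 5.41, 6.57 and 8.87 CPM in sham and at 3.04, 3.26 and 1.70 CPM in SNL (-1.38, SE 0.74). Oasl2, an oligoadenylate synthetase-like protein, was at 18.1, 14.9 and 25.5 CPM in sham and at 6.25, 6.15 and 5.21 CPM in SNL (-1.73, SE 0.59), and Ifit1, which binds viral RNA, had a log2 fold change of -1.85 (SE 0.87). Irf9, a DNA-binding factor of interferon signalling, was at -0.87 (SE 0.31). The one member above sham was Gbp2, a GTPase that also answers interferon gamma, at 24.3 CPM in SNL 2, where the 5 remaining libraries reached at most 10.5 CPM.

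Other immune genes did not follow. Of 17 antigen presentation genes 12 were lower, but 0 were lower or higher at an unadjusted p under 0.05. The 18 microglial markers split into 10 higher and 8 lower with a median of 0.02 and 0 separated genes, and Aif1, a microglial calcium-binding protein, was at 0.25 (SE 0.28). The reads for Il1b, Il6 and Tnf, which encode inflammatory cytokines, were too few to pass the filter. Among 24 genes of cytokines, inflammasome and NF-kB signalling, Il1r1, the interleukin 1 receptor, was at -0.60 (SE 0.22) and Il18 at 0.34 (SE 0.13). In the complement list C4b stood apart, at 89.0, 97.7 and 70.9 CPM in sham and 44.0, 56.4 and 46.6 CPM in SNL (-0.81, SE 0.21, adjusted p 0.224), while the list as a whole had 9 higher and 7 lower genes. Gfap, the intermediate filament of astrocytes, was at -0.18 (SE 0.15), with overlapping groups.

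The genes with the smallest p-values held further named patterns. Arl4d (ENSMUSG00000034936), an Arf-like small GTPase at the plasma membrane, shared the smallest adjusted p with Sgk1. It was at 20.9, 15.97 and 19.3 CPM in sham and at 6.30, 8.41 and 7.49 CPM in SNL (-1.34, SE 0.16, adjusted p 0.0755), so the groups lay far apart. Kcnh1, a voltage-gated potassium channel, was at 52.7, 53.2 and 42.1 CPM in sham and at 27.4, 26.1 and 30.9 CPM in SNL (-0.81, SE 0.12, adjusted p 0.160). Spsb1, a substrate receptor of a ubiquitin ligase, was at 29.4, 33.2 and 24.9 CPM in sham and at 14.8, 18.3 and 14.3 CPM in SNL (-0.88, SE 0.14, adjusted p 0.160). Their groups did not overlap, and the adjusted p was also 0.160 for Ccnjl, a cyclin-like gene (-1.52), Lingo3, a leucine-rich repeat membrane protein (-1.19), and Plekhf1, an endosomal protein (-1.22). DESeq2 called the 12 genes that led on the lower side and the 12 that led on the higher side. They had been picked from the same counts by small edgeR p-values and separated groups, so these calls are no independent support. Over all genes DESeq2 called 1.75%.

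On the higher side, Klf6, an injury-induced Krüppel-like factor, was at 23.9, 23 and 25.2 CPM in sham and at 36.2, 33.9 and 34.1 CPM in SNL (0.53, SE 0.10, adjusted p 0.193). Ier3, an early response gene that guards against cell death, was at 4.49, 3.84 and 4.13 CPM in sham and at 8.99, 9.57 and 10.6 CPM in SNL (1.22, SE 0.26, adjusted p 0.210). Both were tight within each group. Klf6 and Ier3 belong to the immediate early genes, a class that neurons switch on with activity, yet 21 of the 28 genes of that class were lower. Egr4, a zinc finger factor, was at 17.2, 15.5 and 7.90 CPM in sham and at 5.78, 6.68 and 5.84 CPM in SNL (-1.15, SE 0.28). Jun (-0.54, SE 0.17), Fosb (-0.66, SE 0.21) and the phosphatase gene Dusp5 (-0.80, SE 0.23) were lower too. Fos was higher with a wide error (0.79, SE 0.41), and the activity markers Arc (-0.15, SE 0.20) and Npas4 (-0.18, SE 0.18) overlapped between the groups. The median of the class was -0.24 and -0.09 without Sham 1. Further genes with small p and separated groups were Sh2d1a, an adaptor of immune receptors (0.89), the palmitoyltransferase gene Zdhhc22 (1.10), the nucleoside transporter gene Slc29a1 (0.70), Necab1, a neuronal calcium-binding protein (0.65), the receptor gene Gpr137c (0.55), and Cox6a2, a cytochrome oxidase subunit (1.18). SNL 2 was highest for Zdhhc22, at 125.6 CPM, and for Cox6a2, at 13.3 CPM.

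**Figure D2:**
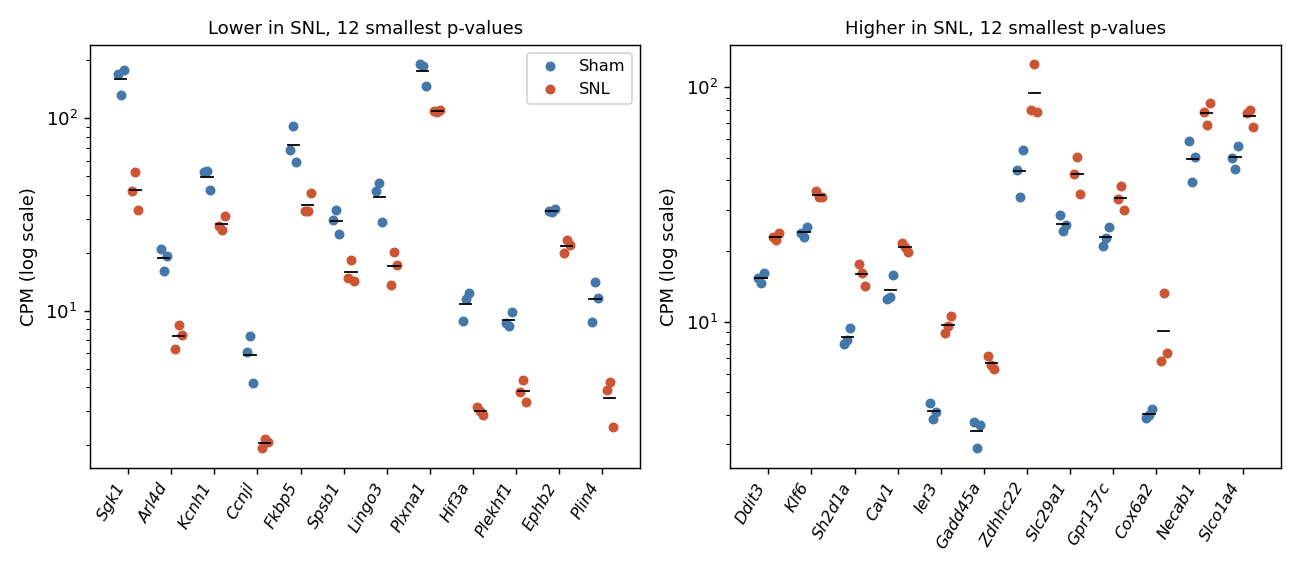
Level in CPM (log axis) of the 12 genes with the smallest p-values among those lower in SNL (left) and the 12 among those higher (right), one point per library, sham in blue and SNL in red, with a black line at each mean. The groups do not overlap for any gene shown, which the rule for choosing them required, and adjusted p-values ran from 0.0755 to 0.193 on the left and from 0.193 to 0.210 on the right.

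The clock genes split. The period genes Per1, Per2 and Per3, repressors of the daily cycle, were lower (Per1 at 119.1, 84.4 and 74.9 CPM in sham and 53.4, 70.7 and 60.3 CPM in SNL), with log2 fold changes of -0.59, -0.36 and -0.29. Per1 is also a glucocorticoid target. The groups of Per2 overlapped, at 48.6, 42.3 and 37.1 CPM in sham and 30.2, 38.0 and 31.1 CPM in SNL. Dbp, an output gene of the clock, was at 0.17 (SE 0.16) with overlapping groups. Of 20 listed clock genes 19 were tested, the symbol Bmal1 being absent from the deposited table. Among those tested 11 were higher and 8 lower, with a median of 0.04. The labels do not give the hour of collection for either group. Rora and Rorb, activators of the cycle that thalamic neurons also express, were higher (1.01 and 0.85), with SNL 2 highest in both at 227.4 and 55.7 CPM.

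The neuronal genes have to be read beside the markers of cell types and regions. In bulk tissue, fewer cells of a type and less RNA per cell cannot be told apart. Of 17 dentate granule cell markers 16 were lower in SNL, with a median of -0.75 and summed levels of 1182, 1558 and 975.6 CPM in sham and 681.8, 918.6 and 911.7 CPM in SNL. The median was -0.48 without Sham 2 and -0.46 when SNL 3 stood alone. C1ql3, a synaptic organizer made by these cells, was at 91.3, 107.5 and 64.8 CPM in sham and at 33.2, 45.6 and 52.3 CPM in SNL (-1.01, SE 0.22, adjusted p 0.210). Of 11 CA1 markers 10 were lower (median -0.47), but the sums of 1316, 1314 and 871.1 CPM in sham and 596.4, 617.7 and 900.9 CPM in SNL overlapped, SNL 3 being above Sham 3. The CA1 median was -0.30 when SNL 3 stood alone. The 9 CA2 markers were split, 4 higher and 5 lower (median -0.03). Their sums were higher in SNL, at 484.5, 815.8 and 587.5 CPM against 414.8, 482.1 and 393.6 CPM in sham. The higher sums came from Pcp4, which encodes a calmodulin-binding protein, and the sums of the remaining CA2 markers overlapped between the groups. Pcp4 was at 298, 633 and 378.3 CPM in SNL and 147.5, 233.8 and 212.6 CPM in sham (log2 fold change 1.14, SE 0.27, edgeR adjusted p 0.210, DESeq2 adjusted p 0.00461). CA3 and mossy cell markers were lower in 12 of 15, while their sums overlapped. Interneuron markers showed no direction (9 higher and 12 lower), among them Sst (-0.08, SE 0.29), Gad1 (0.19, SE 0.20) and Npy (0.00, SE 0.21). Pvalb was higher (0.94, SE 0.30) but its groups overlapped.

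Markers of thalamus and habenula went the other way. Of 20, 19 were higher, 14 at an unadjusted p under 0.05, against 5.83% of all genes. Their summed levels were 1391, 1132 and 1579 CPM in sham and 1775, 3192 and 1677 CPM in SNL. Tcf7l2, a Wnt effector that marks thalamic neurons, was at 53.5, 30.5 and 66.7 CPM in sham and at 108.7, 159.1 and 79.9 CPM in SNL (1.21, SE 0.30, adjusted p 0.220). The median of the list was 1.0, and it was 0.48 without SNL 2 and 0.36 when SNL 3 stood alone. The 15 hypothalamic markers were all higher (median 1.99), and their median was 0.10 in that fit, with sums of 473.6, 138.8 and 61.7 CPM for SNL and 48.3, 44.7 and 87.1 CPM in sham. Choroid plexus markers varied widely within both groups, from 165.1 to 1409 CPM in sham and from 292.6 to 2377 CPM in SNL, and Ttr, the transthyretin of that tissue, was at 0.27 (SE 0.86). The part of these markers in the neuronal differences below was not tested.

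**Figure D3:**
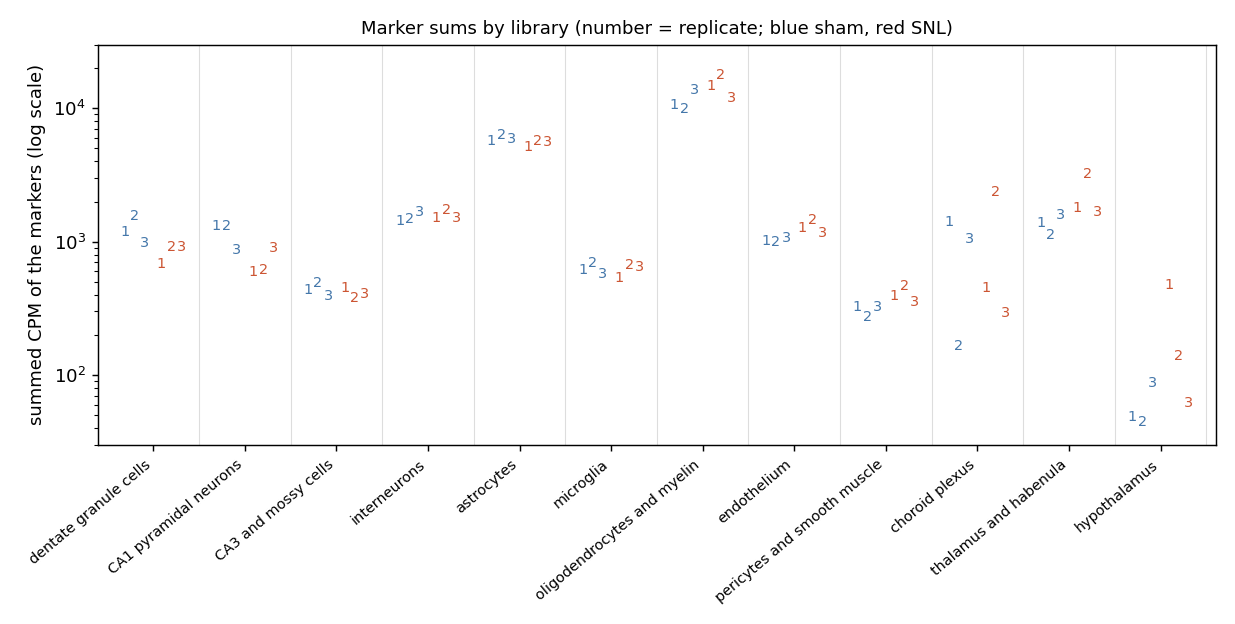
Summed CPM (log axis) of the markers of each cell type or region in each library, with the replicate number as the symbol, sham in blue and SNL in red. Dentate granule sums are lower in all 3 SNL libraries, endothelial, pericyte and thalamic sums are higher in all 3, and hypothalamic sums are highest in SNL 1 and SNL 2.

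Among glutamate synapse genes, the postsynaptic scaffold was the most uniformly lower. Of 22 postsynaptic scaffold genes 21 were lower, 14 at an unadjusted p under 0.05, and 8 were separated downwards, against 7.96% and 9.81% of all genes. Their median was -0.46. The sum of the list was 11690, 12120 and 7562 CPM in sham and 5267, 6979 and 7623 CPM in SNL, so Sham 3 lay within the SNL range. Sham 3 was also the sham library nearest to SNL in Homer3, a scaffold that ties glutamate receptors to calcium stores, at 56.3, 76.3 and 37.5 CPM in sham and 23.2, 20.6 and 33.9 CPM in SNL (-1.13, SE 0.26, adjusted p 0.210). Baiap2 (-0.90, SE 0.25), Dlgap2 (-1.03, SE 0.27) and Camk2b, a subunit of the kinase CaMKII (-0.71, SE 0.22), followed it. The dentate and CA1 sums given above also had Sham 3 as the sham library nearest to SNL.

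AMPA receptors carry fast excitation, and of 19 genes for their subunits and partners 11 were lower and 8 higher. Cacng8, a partner that sets channel gating, was at 115.6, 113.7 and 69.7 CPM in sham and at 37.9, 47.7 and 53.4 CPM in SNL (-1.10, SE 0.20, adjusted p 0.193). Gria1, the subunit inserted during potentiation, was at 917.6, 1051 and 686.8 CPM in sham and at 489, 487.5 and 668.9 CPM in SNL (-0.69, SE 0.22), where SNL 3 came close to Sham 3. Shisa6 (-0.95, SE 0.30) and Shisa7 (-0.71, SE 0.20), which anchor or tune these receptors, were separated downwards, and Shisa9 upwards (0.29, SE 0.10). Without Sham 3, the adjusted p of Cacng8 was 0.0399. Grin1, the obligatory subunit of NMDA receptors, was at 681, 605.3 and 491.4 CPM in sham and at 393.4, 468.9 and 431.9 CPM in SNL (-0.46, SE 0.14), while Grin2b overlapped (-0.53, SE 0.28). The kainate receptor genes Grik5 (-0.61, SE 0.16) and Grik4 (-0.83, SE 0.24) were separated downwards. In the metabotropic pathway, Grm5 (-0.49, SE 0.16), its G protein gene Gnaq (-0.37, SE 0.12) and the phospholipase gene Plcb1 (-0.66, SE 0.20) were lower. Plcb4, the form that thalamic neurons favour, was higher (1.02, SE 0.35), highest in SNL 2 at 170.1 CPM.

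The presynaptic genes were mixed, with 16 lower and 11 higher. Their median was -0.08, and it was 0.01 without SNL 2 and also 0.01 with the offsets for transcript length and GC content. Bsn, the active zone scaffold bassoon, was at 552.4, 507.9 and 345.4 CPM in sham and at 230.7, 283.8 and 300.7 CPM in SNL (-0.79, SE 0.18, adjusted p 0.210). Cplx2, a clamp of vesicle fusion, was at 1367, 1664 and 1041 CPM in sham and at 725.5, 587.2 and 1038 CPM in SNL (-0.79, SE 0.25), separated by a narrow margin. Slc17a6, the vesicular glutamate transporter of thalamic and hypothalamic neurons, was at 67.8, 37.7 and 130.6 CPM in sham and at 177.7, 180.5 and 100.9 CPM in SNL, with overlapping groups (0.96, SE 0.38). Of 26 synaptic adhesion genes 21 were lower, led by Nlgn1, neuroligin 1 (-0.53, SE 0.15), and Slitrk5 (-0.58, SE 0.16). Inhibitory genes were even: 8 of 15 GABA-A receptor genes were higher and 7 lower. Gabra5, the extrasynaptic subunit of hippocampal pyramidal cells, was at -0.79 (SE 0.32), and the potassium-chloride cotransporter gene Slc12a5 at -0.27 (SE 0.13).

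Among ion channels, calcium and potassium channels were mostly lower. Of 15 calcium channel genes 12 were lower, 7 at an unadjusted p under 0.05, against 7.96% of all genes. Cacna1h, a low-threshold T-type channel, was at 187.6, 190.5 and 114.2 CPM in sham and at 71.2, 83.8 and 91.3 CPM in SNL (-0.999, SE 0.22, adjusted p 0.210). Of 33 potassium channel genes 25 were lower and 9 had an unadjusted p under 0.05 in that direction, against the same 7.96%. Kcna1, a channel of axons, was at 55.6, 63.7 and 65.4 CPM in sham and at 28.1, 47.3 and 35.0 CPM in SNL (-0.74, SE 0.18), and Kcng2, a silent modifier subunit, was at -1.24 (SE 0.27). Both were separated. Sodium and HCN channels had 6 higher and 11 lower, with Scn2a at -0.43 (SE 0.12) and Hcn4, a pacemaker channel strong in thalamus, at 1.11 (SE 0.38).

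Genes of axon guidance, which shape connections in development and stay on in the adult hippocampus, were lower in 29 of 38 cases, with a median of -0.43. At an unadjusted p under 0.05, 17 were lower, against 7.96% of all genes. DESeq2 called 7 lower and 1 higher, against 1.75% of all genes in both directions together. Plxna1, a semaphorin receptor, was at 191, 186.8 and 146.9 CPM in sham and at 108.1, 107.4 and 109.4 CPM in SNL (-0.69, SE 0.11, adjusted p 0.160). Ephb2, an ephrin receptor at synapses, was at 32.8, 32.6 and 33.9 CPM in sham and at 20.0, 23.2 and 21.9 CPM in SNL (-0.61, SE 0.10, adjusted p 0.193). Sham 3 stayed clear of the SNL range in both. Slit1, a repellent ligand, was at 289.9, 323.7 and 174.7 CPM in sham and at 104.8, 109 and 136.6 CPM in SNL (-1.17, SE 0.21, adjusted p 0.193), with Slit3 at -1.10 (SE 0.23) and the semaphorin coreceptor gene Nrp1 at -0.94 (SE 0.21). The median was -0.24 with SNL 3 as the only SNL library.

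Neuromodulator systems gave single genes rather than a direction. Of 16 dopamine and noradrenaline genes 8 were higher and 8 lower, and of 15 serotonin genes 8 were higher and 7 lower. Adra1d, an alpha-1 adrenergic receptor, was at 50.2, 50.5 and 26.5 CPM in sham and at 14.9, 16.7 and 19.0 CPM in SNL (-1.33, SE 0.24, adjusted p 0.193), and Adra2c, an alpha-2 receptor, was at -0.59 (SE 0.17). Adra2b, another alpha-2 receptor, was higher by the DESeq2 Wald test (1.75, SE 0.45, adjusted p 0.0156). The serotonin receptor genes Htr6 (-1.19, SE 0.33), Htr4 (-0.97, SE 0.28) and Htr1a (-0.54, SE 0.20) were lower, while Maoa, which breaks serotonin down, was higher (0.40, SE 0.14). The groups overlapped for Htr1a, and also for Htr2c (0.36, SE 0.36) and the dopamine receptor gene Drd2 (0.36, SE 0.62). Among 12 opioid genes 9 were higher, yet Oprd1, the delta receptor, was at 8.82, 6.52 and 6.27 CPM in sham and at 3.91, 3.84 and 5.10 CPM in SNL (-0.75, SE 0.21). Oprm1, the mu receptor (0.13, SE 0.45), Penk, proenkephalin (0.29, SE 0.43), and Pdyn, prodynorphin (0.18, SE 0.37), overlapped. Rgs4, a brake on G protein signalling, was at 140, 124.9 and 130.3 CPM in sham and at 167.2, 272.7 and 166 CPM in SNL (0.62, SE 0.18).

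Endocannabinoids are lipid messengers that neurons make on demand. Of 13 genes of their receptors and enzymes 12 were lower, 3 at an unadjusted p under 0.05, against 7.96% of all genes. Daglb, a synthetic enzyme, was at 41.4, 39.3 and 31.3 CPM in sham and at 24.1, 30.8 and 29.1 CPM in SNL (-0.42, SE 0.14). Faah, which breaks down anandamide, was at 163.6, 186.1 and 112.1 CPM in sham and at 79.5, 101.8 and 124.9 CPM in SNL (-0.59, SE 0.25), and Cnr1, the CB1 receptor, was at 116.5, 137.9 and 98.4 CPM and 94.0, 58.3 and 126.5 CPM (-0.34, SE 0.23). Both overlapped between groups, and SNL 3 was the highest SNL library in each. The somatostatin receptor gene Sstr4 was at 13.4, 14.7 and 8.82 CPM in sham and at 3.62, 5.68 and 5.21 CPM in SNL (-1.34, SE 0.28, adjusted p 0.210), within a list of neuropeptides and receptors that had 14 higher and 13 lower genes. Adcy9, an adenylyl cyclase, was at 83.5, 84.9 and 66.8 CPM in sham and at 27.0, 38.2 and 39.8 CPM in SNL (-1.16, SE 0.20, adjusted p 0.193). In growth factor signalling, Crtc1, a CREB coactivator, was at 332.7, 319.5 and 213.3 CPM in sham and at 148.1, 176.2 and 187.5 CPM in SNL (-0.76, SE 0.19). Ntrk3 (-0.50, SE 0.15) and Sort1, sortilin (-0.52, SE 0.19), were also separated. Bdnf was at 30.1, 43.0 and 26.5 CPM in sham and at 22.0, 18.5 and 26.5 CPM in SNL (-0.57, SE 0.25), and its receptor gene Ntrk2 was at -0.05 (SE 0.12).

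Vascular genes stood higher. Of 18 endothelial markers 16 were higher, 13 at an unadjusted p under 0.05, and 13 were separated upwards, against 5.83% and 7.94% of all genes. Their summed levels were 1016, 1001 and 1061 CPM in sham and 1270, 1445 and 1167 CPM in SNL. Cldn5, the tight junction protein of the blood-brain barrier, was at 34.2, 28.5 and 23.4 CPM in sham and at 44.2, 54.5 and 41.5 CPM in SNL (0.70, SE 0.16, adjusted p 0.210). Cav1, the coat protein of caveolae, was at 12.5, 12.7 and 15.9 CPM in sham and at 21.5, 20.8 and 19.8 CPM in SNL (0.60, SE 0.12, adjusted p 0.210). Neither gene overlapped between the groups. Slco1a4, an organic anion transporter of the barrier, was at 49.8, 44.6 and 56.1 CPM in sham and at 77.5, 80.1 and 67.9 CPM in SNL (0.58, SE 0.13, adjusted p 0.210). The pericyte gene Rgs5 was at 95.9, 89.1 and 113.6 CPM in sham and at 154.3, 157.7 and 127.2 CPM in SNL (0.56, SE 0.12, adjusted p 0.210), and 13 of 14 pericyte and smooth muscle genes were higher. The endothelial median was 0.43, against 0.26 with SNL 3 as the only SNL library, and SNL 2, the library richest in thalamic markers, also had the highest vascular sums. The part of those markers in these values was not tested.

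Oligodendrocyte genes were higher in all 17 cases, with a median of 0.30, but only 1 was separated upwards, against 7.94% of all genes. Mbp, myelin basic protein, was at 4475, 3986 and 5263 CPM in sham and at 5909, 7036 and 5295 CPM in SNL (0.41, SE 0.14). The median of the list was -0.09 when SNL 3 stood alone, and it lay between 0.21 and 0.52 with 1 library left out. Astrocyte markers had 10 higher and 6 lower genes, with the glutamate transporter gene Slc1a3 at 545.4, 585.3 and 398.6 CPM in sham and 372.4, 382 and 399.3 CPM in SNL (-0.41, SE 0.14). Progenitor and immature neuron markers overlapped for the most part, and Dcx, doublecortin, was at 0.28 (SE 0.16).

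Genes of the respiratory chain were slightly above sham, while those of glycolysis and the citric acid cycle were mixed (19 higher and 9 lower, median 0.05). All 36 tested nuclear genes of oxidative phosphorylation, of 42 listed, were above sham (median 0.25). Of these, 7 were higher at an unadjusted p under 0.05 and 4 were separated upwards, against 5.83% and 7.94% of all genes. The listed genes not tested encode ATP synthase subunits, whose symbols were absent from the deposited table. Ndufb10, a subunit of complex I, was at 80.7, 108.1 and 102.8 CPM in sham and at 122.5, 111.4 and 163 CPM in SNL (0.44, SE 0.16). All 13 mitochondrially encoded genes were higher with a median of 0.42. Of them 5 were separated upwards, against 7.94% of all genes, and 0 had an unadjusted p under 0.05. Mitochondrial transcripts took 3.2%, 4.56% and 4.31% of the counts in sham and 6.29%, 4.76% and 5.5% in SNL. Ribosomal protein genes (36 of 39 higher, median 0.20) and antioxidant genes (21 of 24 higher, median 0.19), among them Mgst3, a glutathione transferase (0.49, SE 0.14), and Sod1, superoxide dismutase (0.35, SE 0.13), were also mostly higher. Without Sham 1 the medians were 0.12 for oxidative phosphorylation and 0.04 for ribosomal proteins, and the antioxidant median was 0.08 when SNL 3 stood alone. Cholesterol genes were higher in 20 of 25, with Pmvk, an enzyme of the mevalonate pathway, at 28, 26.0 and 32.2 CPM in sham and 40.3, 38.9 and 42.1 CPM in SNL (0.49, SE 0.12, adjusted p 0.217), although Srebf2, which drives the pathway, was lower (-0.28, SE 0.12). Over all genes, the median log2 fold change was 0.11 for the 4413 with the shortest transcripts and -0.06 for the 4411 with the longest. Offsets for transcript length and GC content, added once the data had been seen, gave medians of 0.17 for oxidative phosphorylation, 0.17 for the mitochondrial genes and 0.11 for ribosomal proteins.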

How the data were processed

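The table that the authors deposited holds RSEM expected counts per gene, on GRCm39, per the submitters' processing notes. The sources used here do not give the aligner, the annotation or any version. Per the labels' protocols, TRIzol served for extraction and a SMARTER mRNA kit for the libraries. Expected counts (18.3% to 24.8% of a library's values were not whole) were rounded, filtered with filterByExpr and scaled by TMM. Genes were tested with the quasi-likelihood F test of edgeR (4.0.16, under R 4.3.3), group being the only factor over all 9 libraries, and p-values adjusted by Benjamini-Hochberg over all 17967 genes at a threshold of 0.05. DESeq2 (1.42.0, Wald test, independent filtering off) was an alternative. CPM are TMM-scaled. Scripts were tested on simulated data.

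The genes and the 60 lists were chosen with earlier results of these data known. Named were the 12 smallest p-values per direction (mean of at least 1 CPM, separated groups, no clone or predicted name), the 8 largest fold changes per direction (mean of at least 5 CPM, otherwise alike), up to 4 members of each list, and fixed anchors such as Bdnf, Cnr1 and Gfap. Other list members named, such as Tsc22d3, were chosen after their values were seen. Of the 60 lists, 0 were tested as sets. Promoter sequences are from RefSeq (GRCm38.p6), a build other than that of the counts, matched by symbol, and transcript length and GC content came from GENCODE transcripts of that older build. The motif searched for glucocorticoid receptors, AGAACA on either strand, stood in 4 of 25 induced genes (16%) and in 19% of all promoters, and it was not pursued. The first share is of genes with a match in any promoter, and the second is of single promoters. Some members of the lists are not reported here.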

Additional observations from a re-analysis of the deposited data

How the results depend on the processing

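The count of genes called at an adjusted p under 0.05 by edgeR was 0 with all genes as filtered, and also with DESeq2 size factors, a filter of 1 CPM in 3 libraries, the 6 libraries alone, or the offsets for length and GC content. It was 253 with no filter on low counts and 314 by the DESeq2 Wald test. At an adjusted p under 0.1 it was 2, Sgk1 and Arl4d. Leaving out each library in turn gave 0 to 7. The 7 came without Sham 3 (Adra1d, Slit1, Plxna1, Lingo3, Cacng8, Tnxb and Ccnjl, all lower). Genes at an unadjusted p under 0.05 numbered 2478, and 1469 to 3516 with 1 library left out. They were over 1.5 times fewer without Sham 1 (1527), Sham 2 (1628) or SNL 1 (1469). Separated genes numbered 3189, and 4215 to 6958 with 1 library left out, where fewer values per group make separation easier. The counts over 1.5 times higher were 6958 without Sham 3, 5839 without SNL 2 and 5770 without SNL 3.

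Without the 3 libraries with hypothalamic transcripts the counts were 1 called gene (the predicted gene Gm29216), 1310 at an unadjusted p under 0.05 and 9748 separated, with SNL 3 as the lone SNL library, which is assumed to vary like the other groups. With the replicate number as a replicate block, 0 genes were called and 1979 had an unadjusted p under 0.05. Same-numbered sham and SNL libraries deviated from their group means in opposite directions (correlations from -0.47 to -0.36). The highest correlations were 0.55 for Sham 2 with SNL 3 and 0.51 for Sham 3 with SNL 1. Deviations from a mean of 3 libraries offset each other, so these values cannot decide whether the numbers pair libraries. The choroid plexus median ran from -1.52 to 0.76, and the cause was not tested. With SNL 3 alone the medians were -0.07 for AMPA receptor genes (-0.23 otherwise), -0.17 for metabotropic glutamate genes (-0.35) and -0.20 for endocannabinoid genes (-0.34). With the offsets they were -0.02 for synaptic adhesion (-0.16) and -0.08 for potassium channels (-0.18).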

Other observations

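The largest fold changes among separated genes averaging 5 CPM or more held some that belong to no list above. Xlr3b, a member of an X-linked family of near-identical copies whose reads cannot be split with certainty, stood at 3.26, 0.657 and 2.70 CPM in sham and at 18.7, 5.42 and 6.27 CPM in SNL (log2 change of 2.19, SE 0.57, adjusted p 0.226). Abhd12b, a hydrolase-domain protein, was at 4.54, 4.45 and 6.68 CPM in sham and at 11.6, 45.1 and 14.0 CPM in SNL (2.18, SE 0.50, adjusted p 0.210). SNL 2 was far above the other SNL libraries in Abhd12b and also in Fzd10, a Wnt receptor, at 13.9 CPM against 4.14 and 5.21 CPM (1.74, SE 0.44), and in Nexn, an actin-binding protein, at 28.5 CPM against 12.3 and 9.88 CPM (1.42, SE 0.40). Cbln1, a synaptic organizer secreted by granule cells of the cerebellum and by some thalamic neurons, was even across SNL, at 42.1, 33.8 and 39.0 CPM, and uneven in sham, at 14.7, 3.94 and 21.8 CPM (1.51, SE 0.45). Cartpt, a neuropeptide precursor abundant in hypothalamus, was at 14.9, 8.26 and 3.93 CPM in SNL and at 3.82 CPM or less in sham.

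The predicted gene Gm29216, named after its values were seen, stood at 352.4, 328.5 and 387.1 CPM in sham and at 55.6, 309.5 and 19.1 CPM in SNL, with 312.2, 18.5 and 10.1 CPM in CBD. Its level fell into a high and a low range across the 9 libraries, and both ranges occurred in SNL and in CBD.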
